A study of Mus musculus with 14 samples.

Results

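The genes described here are 10 genes of the megakaryocyte and platelet lineage, Pf4, Ppbp, Itga2b, Gp1ba, Gp1bb, Gp9, Gp5, Gp6, Treml1 and Clec1b, out of 55335 genes counted. They were taken by name, with earlier results of these data known, and each matched 1 gene. RNA was sequenced from bone marrow cells of mice with the genotype Cdh5 Cre Rosa26 TdTomato, in which a Cre recombinase under the promoter of the endothelial cadherin gene Cdh5 switches on a red fluorescent protein. Cells were sorted as Lineage-, CD45- and TdTomato+ and are labelled as endothelium. The untreated group had 4 libraries. The total body irradiation group (TBI) had 5 libraries from mice given 500 cGy from a caesium source. The IgG RIT group had 3 libraries from mice given 20 µCi of radioimmunotherapy (RIT), a radionuclide attached to an antibody, here one that has no target. The CD45 RIT group had 2 libraries from mice given 20 µCi with an antibody to CD45, the surface protein of most blood cells. The series' title names astatine-211 for the CD45-targeted antibody. Treated mice were harvested 8 days after treatment. The age and sex of the mice, the antibodies of the lineage gate, and whether the Cre is inducible are not given in the sources used here. A Cre under this promoter that is active from embryonic life is known to mark blood cells as well as endothelium. The labels do not say that replicates came from separate mice, so p-values measure the spread between these libraries, which may be technical.

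Megakaryocytes are large bone marrow cells that shed platelets into the blood. Platelets adhere to a damaged vessel wall through the GPIb-IX-V complex, which binds von Willebrand factor, are activated through receptors such as GPVI and CLEC-2, and bind to each other through the fibrinogen receptor, integrin alphaIIb beta3. They release chemokines such as PF4 and PPBP from alpha granules. Haematopoietic stem cells rest near megakaryocytes in the marrow, and PF4 is among the megakaryocyte products known to keep them quiescent. The stem and progenitor cells that give rise to megakaryocytes can carry Itga2b (CD41) as well, so that gene is not restricted to the mature lineage.

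Genes of this lineage are textbook targets of GATA1 and of ETS factors such as FLI1. The 250 bases before the transcription start (RefSeq, GRCm38.p6) were therefore searched on both strands for GATA words, which are GATA with A or T before it and A or G after it (AGATAA is one of them), and for ETS words, which are GGAAG with A or C before it. The words of one kind cannot contain those of the other. All 10 genes matched a RefSeq promoter. At least 1 GATA word was found in 5 of 10, against 26.5% of 32851 promoters, and at least 1 ETS word in 6 of 10, against 39.2%. The promoters of 4 genes are shown, with the words in capitals, because their genes took different courses in the data: Pf4 and Gp9 have no GATA word here, and Gp1ba and Gp5 have 3 each.
Pf4 (chr5:90772185-90772434, plus strand): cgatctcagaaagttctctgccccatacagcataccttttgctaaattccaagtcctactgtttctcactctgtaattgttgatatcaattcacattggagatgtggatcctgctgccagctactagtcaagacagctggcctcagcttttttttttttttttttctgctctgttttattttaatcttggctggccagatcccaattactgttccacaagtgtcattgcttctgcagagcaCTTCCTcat
Gp9 (chr6:87777820-87778069, plus strand): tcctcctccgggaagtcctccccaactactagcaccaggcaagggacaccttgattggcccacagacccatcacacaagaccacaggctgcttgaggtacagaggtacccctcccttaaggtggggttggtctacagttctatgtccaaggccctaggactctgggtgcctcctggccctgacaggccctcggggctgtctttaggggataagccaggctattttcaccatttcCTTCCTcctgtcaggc
Gp1ba (chr11:70638872-70639121, plus strand): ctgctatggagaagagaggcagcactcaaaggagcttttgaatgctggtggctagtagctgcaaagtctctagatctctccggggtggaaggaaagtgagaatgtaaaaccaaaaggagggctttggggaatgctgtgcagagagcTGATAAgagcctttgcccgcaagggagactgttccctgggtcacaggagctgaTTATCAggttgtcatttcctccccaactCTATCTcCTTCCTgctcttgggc
Gp5 (chr16:30310782-30311031, minus strand): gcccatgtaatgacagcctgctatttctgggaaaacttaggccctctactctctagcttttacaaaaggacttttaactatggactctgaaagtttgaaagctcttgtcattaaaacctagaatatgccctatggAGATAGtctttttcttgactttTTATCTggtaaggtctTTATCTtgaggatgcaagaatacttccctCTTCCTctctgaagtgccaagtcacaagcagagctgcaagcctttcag

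In Gp1ba the last bases of the GATA words lie 99, 46 and 18 bases before the start, and in Gp5 they lie 110, 88 and 72 bases before it. The ETS word CTTCCT ends 4 bases before the start in Pf4 and 11 bases before it in both Gp9 and Gp1ba. Gp1bb, Gp6 and Clec1b had 1 GATA word each. A match of letters is a description of the sequence and not a binding site. Genes without a GATA word in this window took unlike courses: Gp9 kept a level of at least 11.0 CPM in every untreated, TBI and IgG RIT library, whereas Pf4 was lower in TBI and IgG RIT.

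Libraries held 16412779 to 31077588 counts. Levels are given as CPM, counts scaled to a common library size with factors from the trimmed mean of M values, and a floor of 3 counts, the smallest signal taken as present, was 0.0785 to 0.215 CPM. A gene was called changed at an adjusted p under 0.05 in edgeR's quasi-likelihood test, adjusted over 21509 genes. Among the 10 genes, 9 passed the filter on low counts, and Gp1bb did not. The sort label was not matched by its own gene: Cdh5 had 0 to 6 counts in the untreated and TBI libraries and 0 in each RIT library. Some features of the libraries touch the results. TBI replicate 6 stood apart from the other TBI libraries, with 205000 CPM summed over 10 erythroid markers against 22900 to 36500. The CD45 RIT libraries correlated with each other at 0.673 across genes, against 0.906 to 0.979 within the other groups, and replicate 2 had counts for 17700 genes. Calls of lineage genes that ended when one of these libraries was left out are named with the result.

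The plot of levels by library shows the 10 genes in all 14 libraries. Summed over the 10 genes, the level was 275 to 363 CPM in untreated libraries, 52.2 to 112 CPM in TBI, 79.3 to 145 CPM in IgG RIT, and 317 and 50 CPM in the CD45 RIT replicates 1 and 2. Each TBI and IgG RIT library lay below each untreated library, and the CD45 RIT libraries lay on both sides. In bulk RNA of sorted cells, fewer cells of a type and less RNA per cell cannot be told apart. Against untreated, 2 of the 9 tested genes were called lower in TBI, where 4.31% of all tested genes were called and 3.38% were called lower. In IgG RIT 1 of 9 was called lower, where 16.4% of all tested genes were called and 10.7% were called lower. In CD45 RIT 2 of 9 were called lower, where 33.1% of all tested genes were called and 18.6% were called lower, so that share is near the background. The median log2 fold change of the tested genes was -2.40 in TBI, -2.11 in IgG RIT and -1.14 in CD45 RIT, beside medians over all tested genes of -0.16, -0.42 and -0.37.

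**Figure D1:**
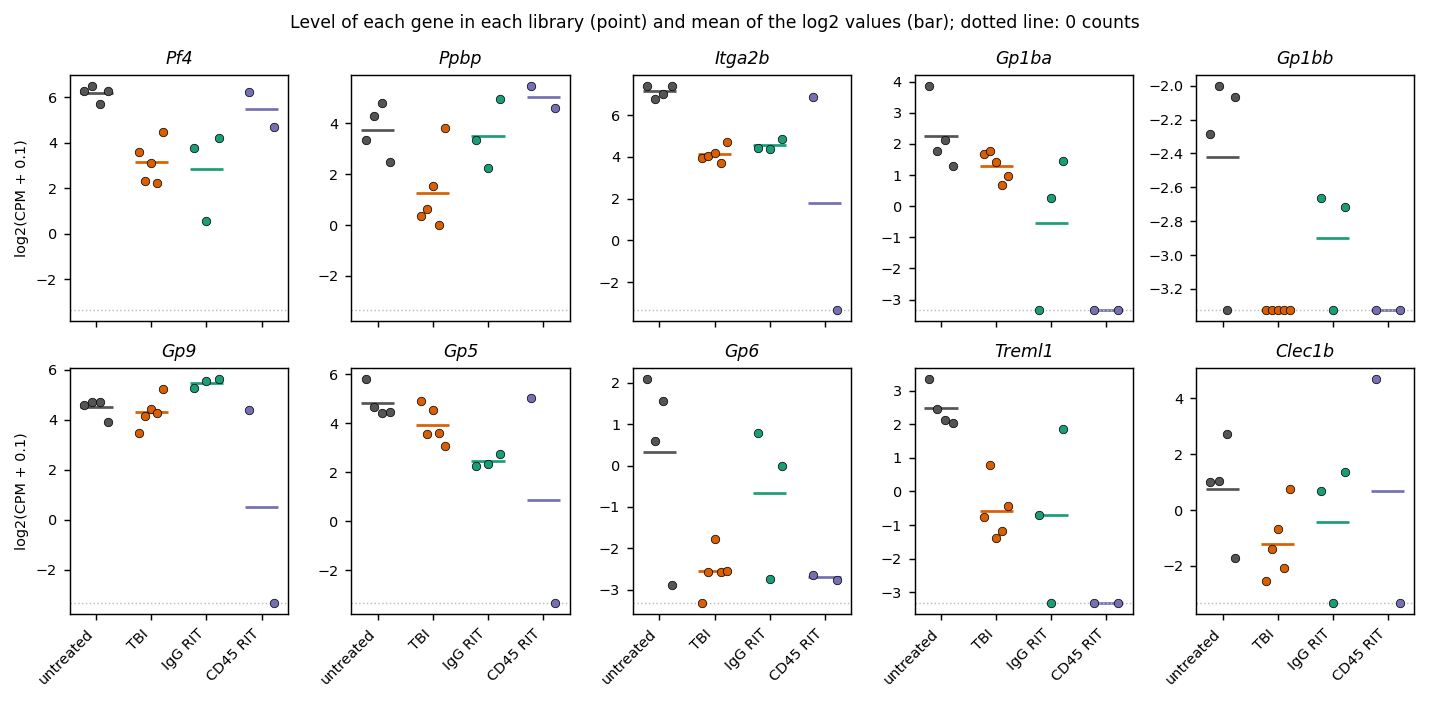
Level of each of the 10 genes, as log2 of CPM plus 0.1, in every library (points) with the mean of the log2 values per group (bars), each panel on its own vertical scale; the dotted line marks 0 counts. Pf4 and Itga2b were lower in every TBI and IgG RIT library than in any untreated one, Gp9 was not, and the CD45 RIT libraries disagreed on 4 genes that had 342 or more counts in replicate 1 and 0 in replicate 2.

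Pf4 (ENSMUSG00000029373.7, chr5:90772435-90773383) encodes platelet factor 4, a chemokine of alpha granules. It was measured at 75.7, 90.1, 51.1 and 75.6 CPM in untreated replicates 1 to 4. In TBI replicates 1, 3, 4, 5 and 6 it was at 11.9, 4.87, 8.63, 4.64 and 22 CPM, in IgG RIT replicates 1 to 3 at 13.3, 1.39 and 18.5 CPM, and in CD45 RIT at 75.4 and 26.0 CPM. Every TBI and IgG RIT library was below the lowest untreated library, and CD45 RIT replicate 1 was as high as untreated libraries. Pf4 fell by 2.82 on the log2 scale in TBI (SE of 0.66, adjusted p of 0.0338) and by 2.73 in IgG RIT (SE of 0.81, adjusted p of 0.0378). The change in CD45 RIT was -0.53 (SE of 0.84, adjusted p of 0.643). Between treatments, Pf4 was higher in CD45 RIT than in TBI by 2.29 (SE of 0.75, adjusted p of 0.0297), in a comparison in which 38.6% of all tested genes were called. Against IgG RIT the difference of 2.20 did not pass (SE of 0.87, adjusted p of 0.0635), although both CD45 RIT libraries lay above the 3 IgG RIT libraries, as they did in 21.7% of all tested genes.

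These calls of Pf4 rested on nearly every library. The TBI call was lost without any of the 4 untreated libraries or TBI replicates 1, 3, 4 or 5 (adjusted p 0.0536 to 0.0911) and was kept without TBI replicate 6 (-3.28, adjusted p = 0.0241). The IgG RIT call was kept only without IgG RIT replicate 3 and otherwise gave an adjusted p of 0.0528 to 0.0966. With median-of-ratios (RLE) scaling factors it was -2.51 (adjusted p = 0.053), and with no filter on low counts -2.60 (adjusted p = 0.0548). Without CD45 RIT replicate 1, the difference from TBI was 1.32 (adjusted p = 0.233). Without any of TBI replicates 1, 3, 4 and 5 its adjusted p was at least 0.0502, with no scaling factors 0.0562 and with no filter 0.054. DESeq2 called the difference of CD45 RIT from IgG RIT (2.21, adjusted p = 0.0309), where it called 47.3% of all genes it tested.

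Ppbp (ENSMUSG00000029372.7, chr5:90768518-90770063), the neighbour of Pf4 at a distance of 2371 bases on the same strand, encodes pro-platelet basic protein, the precursor of a neutrophil-attracting chemokine of alpha granules. Its levels were 10.1, 19.4, 27.8 and 5.54 CPM in untreated, 1.17, 1.45, 2.81, 0.915 and 14 CPM in TBI, 10.0, 4.68 and 31.4 CPM in IgG RIT, and 44.6 and 24 CPM in CD45 RIT. TBI replicates 1, 3, 4 and 5 were below all other libraries, and TBI replicate 6 lay among the untreated ones. The log2 fold change in TBI was -1.96 (SE of 0.87, adjusted p of 0.252), and without TBI replicate 6 it was -3.31 (adjusted p = 0.0275), where 3.85% of all tested genes were called. In IgG RIT it was -0.03 (SE of 0.97, adjusted p of 0.989), and in CD45 RIT 1.13 (SE of 1.07, adjusted p of 0.42). Ppbp was higher in CD45 RIT than in TBI by 3.09 (SE of 1.00, adjusted p of 0.0285), with no overlap, as in 18.2% of all tested genes for that direction. That call was lost without CD45 RIT replicate 1 or any of TBI replicates 1, 3, 4 and 5 (adjusted p 0.0541 to 0.0846), and with only the 2 groups in the fit (adjusted p = 0.0715).

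The neighbouring chemokine genes did not keep a fixed ratio. Per kilobase of the gene length given with the counts, Pf4 was 2.77 to 20.5 times Ppbp in untreated libraries. In TBI it was 2.36 to 15.3 times Ppbp. In IgG RIT the ratio was 1.99, 0.447 and 0.886, and in CD45 RIT it was 2.54 and 1.63. Each IgG RIT and CD45 RIT library thus had a lower ratio than any untreated library, and TBI libraries overlapped with untreated ones.

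Itga2b (ENSMUSG00000034664.13, chr11:102453297-102470122) encodes the alphaIIb chain of the fibrinogen receptor, known as CD41. It was the most highly counted of the 10 genes, at 166, 108, 130 and 170 CPM in untreated libraries. In TBI it was at 15.5, 16.1, 18.1, 13.1 and 26.1 CPM and in IgG RIT at 21.2, 20.8 and 29.3 CPM. In CD45 RIT it was at 117 CPM in replicate 1 (1924 counts) and had 0 counts in replicate 2. All 8 TBI and IgG RIT libraries were far below the 4 untreated libraries and close to each other, and the 2 CD45 RIT libraries were at opposite ends. In the fit of all 14 libraries the log2 fold changes were -3.01 in TBI (SE of 1.02, adjusted p of 0.126), -2.59 in IgG RIT (SE of 1.23, adjusted p of 0.162) and -1.29 in CD45 RIT (SE of 1.34, adjusted p of 0.466), and none was called. That fit shares 1 estimate of the spread over all groups, the CD45 RIT libraries included. Fitted with only the TBI and untreated libraries, Itga2b fell by 2.88 (SE of 0.26, adjusted p of 0.000263), and with only the IgG RIT and untreated libraries by 2.30 (SE of 0.22, adjusted p of 0.00018). These fits called 17.5% and 35.8% of all genes they tested.

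Without TBI replicate 6 the change of Itga2b in TBI was -3.19 (adjusted p = 0.192). CD45 RIT replicate 2 alone was at least 993-fold below the untreated mean, against its floor of 0.144 CPM, at least 124-fold below the TBI mean and at least 165-fold below the IgG RIT mean. These bounds cover counting error only, and replicate 1 of the same group had 1924 counts of Itga2b. With replicate 2 left out, CD45 RIT replicate 1 differed from untreated by -0.33 (adjusted p = 0.534) and was above IgG RIT by 2.08 (adjusted p = 0.00126) and above TBI by 2.57 (adjusted p = 0.000109), where 35.0% and 34.6% of all tested genes were called. In these fits the lone library is assumed to vary like the other groups.

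The GPIb-IX-V complex, the receptor for von Willebrand factor, is made of the products of Gp1ba, Gp1bb, Gp9 and Gp5. Its genes took unlike courses. Gp9 (ENSMUSG00000030054.4, chr6:87778072-87779768), the small subunit needed for the complex to reach the surface, was at 24.2, 26.4, 26.4 and 14.9 CPM in untreated, 11.0, 17.5, 21.7, 19.4 and 37.7 CPM in TBI, and 38.3, 46.2 and 49.3 CPM in IgG RIT. In CD45 RIT it was at 20.8 CPM and at 0. TBI libraries were spread around the untreated ones. In scaled CPM the 3 IgG RIT libraries were above all others, the lowest at 38.3 against 37.7 CPM in TBI replicate 6. The log2 fold change was -0.10 in TBI (SE of 0.90, adjusted p of 0.98), a value that took a positive sign under some of the other settings, and 0.96 in IgG RIT (SE of 1.02, adjusted p of 0.553). No overlap with a higher level, as in IgG RIT, was found in 15.7% of all tested genes. Fitted with only the IgG RIT and untreated libraries, Gp9 rose by 1.24 (SE of 0.24, adjusted p of 0.00579). Across the other settings the rise ranged from 0.43 to 1.24. The lack of overlap held in scaled CPM, with scaling factors of 0.798 to 0.876 in IgG RIT and 1.15 to 1.23 in untreated libraries. Unscaled, IgG RIT replicate 1 (662 of 21657745 counts) lay below untreated replicate 2 (884 of 27594134 counts). It also lay below TBI replicate 6 (526 of 16412779 counts). The difference of IgG RIT from TBI was 1.06 (SE of 0.97, adjusted p of 0.589), and that of CD45 RIT from IgG RIT was -2.10 (SE of 1.34, adjusted p of 0.228).

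Gp5 (ENSMUSG00000047953.7, chr16:30307685-30310779), the subunit that thrombin cleaves, was at 55.7, 25, 21.5 and 22.2 CPM in untreated, 29.5, 11.6, 23.0, 12.1 and 8.25 CPM in TBI, 4.63, 5.03 and 6.67 CPM in IgG RIT, and 32.9 and 0 CPM in CD45 RIT. The 3 IgG RIT libraries were below every untreated and TBI library, while TBI overlapped with untreated. The log2 fold changes were -0.88 in TBI (SE of 0.98, adjusted p of 0.739), -2.51 in IgG RIT (SE of 1.23, adjusted p of 0.176) and -0.92 in CD45 RIT (SE of 1.33, adjusted p of 0.606). With only IgG RIT and untreated libraries in the fit, Gp5 fell by 2.23 (SE of 0.43, adjusted p of 0.00508). In the same libraries Gp9 was therefore higher and Gp5 lower than in untreated ones, each without overlap in scaled CPM.

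Gp1ba (ENSMUSG00000050675.7, chr11:70639122-70642036), the chain that binds von Willebrand factor itself, was at 14.5, 3.35, 4.24 and 2.32 CPM in untreated and 3.08, 3.28, 2.58, 1.49 and 1.87 CPM in TBI. It was at 0, 1.10 and 2.63 CPM in IgG RIT and had 0 counts in both CD45 RIT libraries. Untreated replicate 1 stood above the rest, and the TBI libraries overlapped with the other untreated ones. Gp1ba was called lower in CD45 RIT, where it was at least 37.3-fold lower than the untreated mean (adjusted p = 0.0066), at least 15.0-fold lower than TBI (adjusted p = 0.00964) and at least 7.59-fold lower than IgG RIT (adjusted p = 0.0185), against a floor of 3 counts per library. Single libraries carried these bounds: without untreated replicate 1 the first was at least 20.2-fold, and the one against IgG RIT was at least 3.35-fold without IgG RIT replicate 3 and at least 11.4-fold without IgG RIT replicate 1. The calls against untreated and TBI were kept whichever library was left out, and that against IgG RIT was lost without CD45 RIT replicate 2 (adjusted p = 0.0671) and with only the 2 groups in the fit (adjusted p = 0.218). The changes of -1.31 in TBI (SE of 0.90, adjusted p of 0.518) and -2.29 in IgG RIT (SE of 1.12, adjusted p of 0.177) were not called.

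Gp1bb (ENSMUSG00000050761.4, chr16:18620317-18622403), the chain linked to GPIb alpha, had 4, 5, 0 and 4 counts in untreated libraries, 0 in all TBI and CD45 RIT libraries, and 1, 0 and 1 in IgG RIT. It was not tested, and at these counts no difference was detectable. Its locus overlaps Sept5 and Gm49601 on the same strand, and how reads shared between overlapping genes were assigned is not given in the sources used here, so its counts are uncertain. Sept5 had 1 to 23 counts in CD45 RIT and 0 to 2 in the other groups, and Gm49601 had 0 to 1 in all groups.

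**Figure D2:**
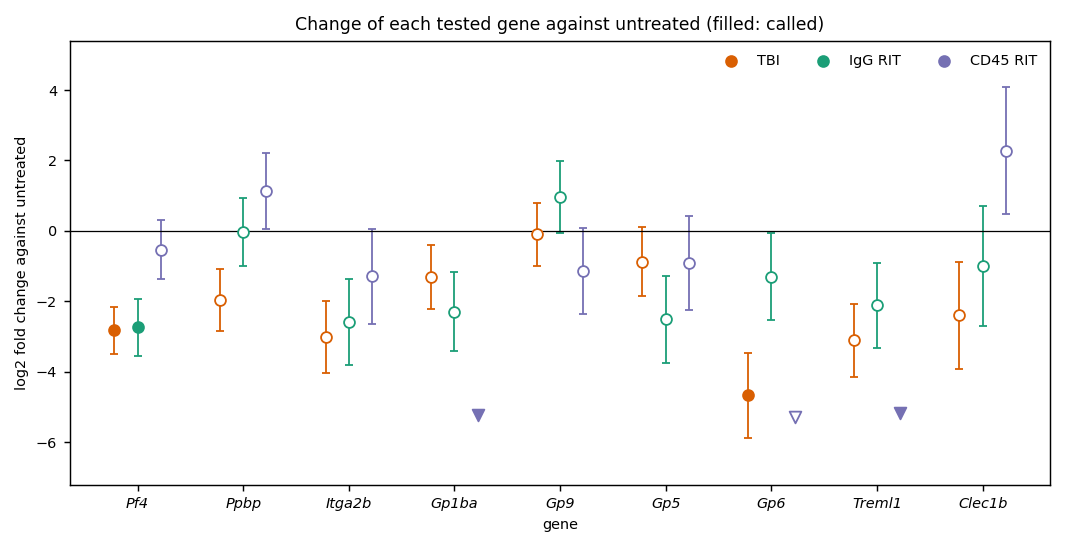
Log2 fold change against untreated of the 9 tested genes in TBI, IgG RIT and CD45 RIT (circles, with bars of 1 standard error; filled symbols passed the test). Triangles stand for CD45 RIT in place of a fitted value: for Gp1ba and Treml1 the bound of at least 37.3-fold and 36.2-fold lower, and for Gp6 the ratio of 39.3 that its 2 counts give. Most points lie below 0, with Gp9, Ppbp and Clec1b on both sides.

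The last 3 genes encode receptors or receptor-like proteins that act in platelet activation. Gp6 (ENSMUSG00000078810.4, chr7:4363965-4397744) encodes GPVI, the collagen receptor. It was at 4.16, 1.41, 2.84 and 0.0346 CPM in untreated, 0, 0.0691, 0.191, 0.0677 and 0.0718 CPM in TBI, 1.62, 0.0498 and 0.893 CPM in IgG RIT, and 0.0609 and 0.048 CPM in CD45 RIT. Only 1 TBI library was above the floor, and untreated replicate 4 had 1 count, within the TBI range. Gp6 fell by 4.67 in TBI (SE of 1.21, adjusted p of 0.0499). That call held without untreated replicate 4 and was lost without any of the other 8 libraries of the comparison (adjusted p 0.0776 to 0.122), with RLE factors (0.0566) and with no filter (0.0649). In CD45 RIT, with 1 count in each library, the untreated mean was 39.3 times the level (95% counting interval 10.9 to 324). That interval leaves out the spread between libraries. Untreated replicate 4, at 0.0346 CPM, lay below both CD45 RIT libraries. The fall of Gp6 in CD45 RIT was not called (adjusted p = 0.0535). It was called by DESeq2 (adjusted p = 0.0117), which called 43.7% of all genes it tested, with no scaling factors (adjusted p = 0.0322) and without untreated replicate 4 (adjusted p = 0.023). Between IgG RIT and TBI the difference was 3.37 (SE of 1.22, adjusted p of 0.177).

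Treml1 (ENSMUSG00000023993.7, chr17:48359916-48367176) encodes TLT-1, a receptor of alpha granules that appears on activated platelets. Its levels were 10.1, 5.35, 4.24 and 4.02 CPM in untreated, 0.495, 1.62, 0.286, 0.339 and 0.646 CPM in TBI, and 0.521, 0 and 3.57 CPM in IgG RIT. Both CD45 RIT libraries had 0 counts. Every treated library was below every untreated library. Against untreated, Treml1 was at least 36.2-fold lower in CD45 RIT (adjusted p = 0.00993), a call kept whichever library was left out. The change in TBI was -3.11 (SE of 1.03, adjusted p of 0.122), called at -2.99 with only TBI and untreated libraries in the fit (SE of 0.57, adjusted p of 0.00713), and that in IgG RIT was -2.11 (SE of 1.20, adjusted p of 0.245). CD45 RIT was at least 4.15-fold lower than TBI (adjusted p = 0.0376) and at least 8.35-fold lower than IgG RIT (adjusted p = 0.0241). The TBI comparison lost its call without either CD45 RIT library or TBI replicates 1, 3 or 6 (adjusted p 0.0502 to 0.127), and the IgG RIT comparison without either CD45 RIT library or IgG RIT replicate 3 (adjusted p 0.0587 to 0.0824). The bound against IgG RIT was at least 1.59-fold without IgG RIT replicate 3 and at least 12.5-fold without IgG RIT replicate 2, and that against TBI was at least 2.7-fold without TBI replicate 3.

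Clec1b (ENSMUSG00000030159.15, chr6:129397297-129409335) encodes CLEC-2, the receptor for podoplanin. It was at 1.91, 1.94, 6.54 and 0.208 CPM in untreated, 0.0707, 0.277, 0.525, 0.135 and 1.58 CPM in TBI, 1.51, 0 and 2.47 CPM in IgG RIT, and 25.7 and 0 CPM in CD45 RIT. The highest level of all 14 libraries and 1 of the 2 lowest thus came from the same group, with 422 counts in CD45 RIT replicate 1 and 0 in replicate 2. No change against untreated was called: -2.40 in TBI (SE of 1.52, adjusted p of 0.464), -1.0 in IgG RIT (SE of 1.71, adjusted p of 0.728) and 2.28 in CD45 RIT (SE of 1.80, adjusted p of 0.335). The difference of CD45 RIT from TBI was 4.68 (SE of 1.77, adjusted p of 0.0527), called without CD45 RIT replicate 2 (5.51, adjusted p = 0.0128) or without TBI replicate 6 (5.67, adjusted p = 0.0407), where 38.0% of all tested genes were called. Without CD45 RIT replicate 1 its direction reversed. Clec1b overlaps Clec9a on the same strand, which had 0 to 20 counts, all of them in untreated and TBI libraries.

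Across the comparisons against untreated, libraries of the 2 groups did not overlap, with the treated group lower, for 3 of the 9 tested genes in TBI (Pf4, Itga2b and Treml1), where 12.8% of all tested genes did so. In IgG RIT this held for 4 (Pf4, Itga2b, Gp5 and Treml1; 27.4% of all tested genes), and in CD45 RIT for 2 (Gp1ba and Treml1; 29.8%). The comparisons share the untreated libraries. Treml1 was on each of these lists, and Gp9 was the only gene of the 9 higher without overlap, in IgG RIT and only in scaled CPM. Between CD45 RIT and IgG RIT, 2 of 9 were called, Gp1ba and Treml1, both lower in CD45 RIT, where 37.7% of all tested genes were called and 17.5% were called lower. Between CD45 RIT and TBI 4 of 9 were called, Pf4 and Ppbp higher and Gp1ba and Treml1 lower in CD45 RIT. That share is close to the 38.6% of all tested genes. Between IgG RIT and TBI, edgeR called 0 of 9, with 1 (Gp6) at an unadjusted p under 0.05, where it called 0.242% of all tested genes. DESeq2 called 0 of 9 there, where it called 10.8% of all genes it tested. Without TBI replicate 6, Ppbp was called higher in IgG RIT than in TBI by 3.27 (adjusted p = 0.0198), where edgeR called 9.44% of all tested genes.

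Levels of different genes were compared per kilobase of the gene length given with the counts. It was 5454 bases for Itga2b and 881 bases for Gp9. That length need not be the length of the transcripts present, and the order of the genes depends on it. In untreated libraries Pf4 led with 101 ± 22.4 CPM per kilobase (SD, n = 4), followed by Itga2b at 26.3 ± 5.49 and Gp9 at 26.1 ± 6.23 (SD, n = 4), which did not differ beyond their spread. Ppbp at 14.5 ± 9.14 and Gp5 at 14.2 ± 7.50 came next, and Treml1 was at 4.22 ± 2.02, Gp1ba at 2.24 ± 2.07, Clec1b at 0.519 ± 0.532 and Gp6 at 0.358 ± 0.302 (SD, n = 4). Gp1bb was last, at 0.0471 ± 0.0327 CPM per kilobase (SD, n = 4). In TBI the order began with Gp9 at 24.4 ± 11.3 and Pf4 at 14.4 ± 9.87 (SD, n = 5), whose spreads overlapped, and in IgG RIT with Gp9 at 50.7 ± 6.45 and Pf4 at 15.3 ± 12.2 (SD, n = 3). Itga2b, level with Gp9 in untreated libraries, was at 3.26 ± 0.914 in TBI (SD, n = 5) and 4.36 ± 0.882 in IgG RIT (SD, n = 3).

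**Figure D3:**
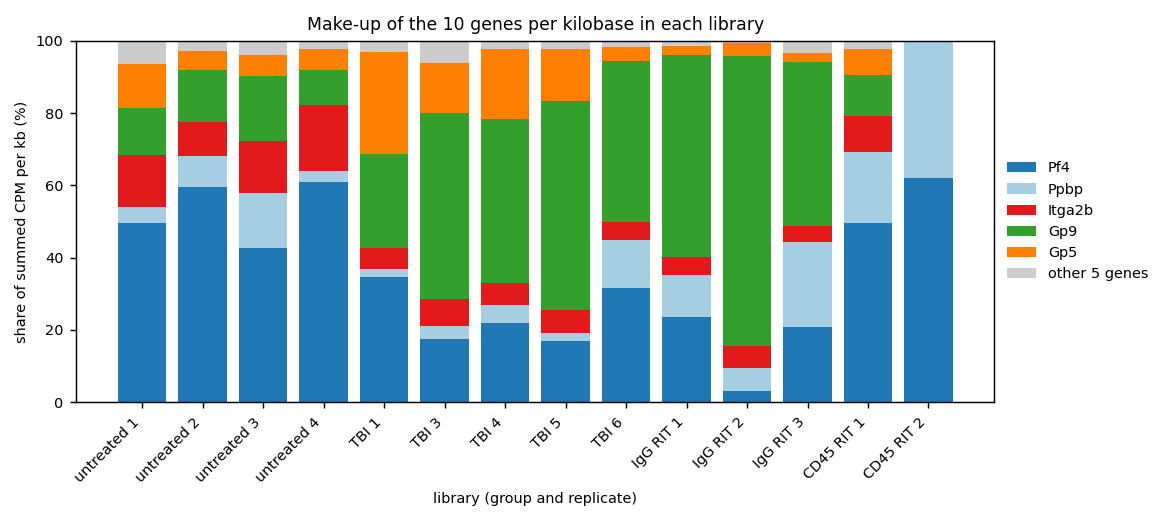
Share of each gene in the summed CPM per kilobase of the 10 genes, in percent, for every library (stacked bars); the 5 least abundant genes are drawn together. Pf4 and Ppbp made up 54.1% to 68.1% in untreated libraries, Gp9 was the largest part in 4 of the 5 TBI libraries and all 3 IgG RIT libraries, and CD45 RIT replicate 2 held Pf4 and Ppbp with almost nothing else.

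The make-up of the 10 genes therefore shifted along with their sum, as the plot of shares shows. Gp9 made up 9.83% to 18.0% of the summed level per kilobase in untreated libraries, 26.1% to 57.9% in TBI and 45.5% to 80.4% in IgG RIT. Per kilobase, Gp9 was 0.542 to 1.52 times Itga2b in untreated libraries. In TBI it was 4.41 to 9.13 times and in IgG RIT 10.4 to 13.8 times Itga2b, with no overlap among these 3 groups, while CD45 RIT replicate 1 had a ratio of 1.10. In the CD45 RIT group, replicate 1 had 6 of the 10 genes above the floor and replicate 2 had 2, Pf4 with 541 counts and Ppbp with 499 counts. Replicate 2 had 0 counts of Itga2b, Gp9, Gp5 and Clec1b, which had 1924, 342, 540 and 422 counts in replicate 1. Untreated libraries had 9 or 10 of the genes above the floor, TBI libraries 7 to 9 and IgG RIT libraries 6 to 9.

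Other genes of the lineage were examined through 5 lists with 52 genes, all of which passed the filter. Against untreated, 1 rose and 6 fell in TBI, 1 rose and 9 fell in IgG RIT, and 7 rose and 8 fell in CD45 RIT. The shares called were thus 13.5%, 19.2% and 28.8%, beside 4.31%, 16.4% and 33.1% of all tested genes, so that the share in IgG RIT was near the background and the share in CD45 RIT below it. The median log2 fold change of the 52 genes was -1.54, -2.34 and 0.06 in these comparisons. Among 9 transcription factors of the lineage, Tal1, a factor of stem cell, erythroid and megakaryocyte development, rose in TBI by 1.52 (SE of 0.30, adjusted p of 0.0146) and in IgG RIT by 2.42 (SE of 0.33, adjusted p of 0.00184). Etv6, an ETS repressor needed for platelet formation, fell in IgG RIT by 3.20 (SE of 0.72, adjusted p of 0.012). Runx1 rose in CD45 RIT by 1.48 (SE of 0.39, adjusted p of 0.0134), with a wide spread of 173 ± 136 CPM (SD, n = 2). Gata1 and Fli1, named after their values were seen because of the sequence words above, were not called in these comparisons. Gata1 was at 199 to 267 CPM in untreated libraries, 362 to 642 in TBI, 603 to 611 in IgG RIT, and 0 and 67.4 in CD45 RIT. Fli1 was at 28.7 to 65.1 CPM in untreated libraries, 3.80 to 26.5 in TBI, 0.348 to 18.0 in IgG RIT, and 0 and 8.65 in CD45 RIT.

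The next list holds 9 receptors for agonists of platelets. F2rl2, which encodes the thrombin receptor PAR3, fell by 4.25 in IgG RIT (SE of 1.23, adjusted p of 0.0374). In CD45 RIT the ATP-gated channel gene P2rx1 was at least 83.5-fold lower with an adjusted p of 0.0114 and the thrombin receptor gene F2rl3 (PAR4), named after its value was seen, at least 57.9-fold lower (adjusted p = 0.0133). F2rl2 was at least 40.5-fold lower there (adjusted p = 0.00578), and at least 26.3-fold without untreated replicate 1. The summed level of the 9 receptors was 72.2 to 127 CPM in untreated libraries, 15.2 to 41.3 in TBI, 21.1 to 30.3 in IgG RIT and 35.5 to 49.5 in CD45 RIT, without overlap between untreated and treated libraries. In CD45 RIT, 2 receptors were above the floor in replicate 1 and 3 in replicate 2. Different genes made up most of each sum: P2ry1 in replicate 1 (43.4 CPM) and Adra2a in replicate 2 (24.3 CPM), both named after their values were seen.

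Among 10 partners in adhesion, Cd9, a tetraspanin abundant on platelets, fell by 2.39 in TBI (SE of 0.28, adjusted p of 0.00136) and by 2.52 in IgG RIT (SE of 0.35, adjusted p of 0.00186) and rose by 2.15 in CD45 RIT (SE of 0.34, adjusted p of 0.000685). Fcer1g, whose product is the signalling chain of GPVI and also of mast cell and basophil Fc receptors, fell in each group, by 3.30 in TBI (adjusted p = 0.00111), 3.26 in IgG RIT (adjusted p = 0.00184) and 1.40 in CD45 RIT (adjusted p = 0.0385). Itga2, the collagen-binding integrin chain, had 0 counts in IgG RIT and lay at least 16.0-fold below untreated (adjusted p = 0.0133). In CD45 RIT, Itgb3, the integrin chain that pairs with alphaIIb, rose by 2.97 (SE of 0.63, adjusted p of 0.00379), and Fermt3, the integrin activator kindlin-3 of blood cells, fell by 3.88 (SE of 0.96, adjusted p of 0.00911). Itgb3 was at 61.0 ± 34.1 CPM in CD45 RIT (SD, n = 2) and 7.81 ± 4.36 in untreated libraries (SD, n = 4). Its partner gene Itga2b had 0 counts in 1 of these 2 CD45 RIT libraries.

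Among 11 granule genes, Clu and Serpine2, which encode clusterin and protease nexin 1 and are expressed in many tissues, fell in TBI by 2.48 (SE of 0.61, adjusted p of 0.0393) and 2.22 (SE of 0.54, adjusted p of 0.0375). In CD45 RIT both rose, Clu by 3.47 (SE of 0.74, adjusted p of 0.00413) and Serpine2 by 3.98 (SE of 0.67, adjusted p of 0.000994). Thbs1, thrombospondin 1, rose there by 3.57 (SE of 1.24, adjusted p of 0.0427), and Nbeal2, needed to form alpha granules, fell (adjusted p of 0.00826). Nbeal2 had 3 and 1 counts in the CD45 RIT libraries, and its untreated mean was 123 times that level (95% counting interval 47.9 to 450). That interval leaves out the spread between libraries. Among 13 signalling genes, Plek, the platelet substrate of protein kinase C, fell in TBI by 2.16 (SE of 0.46, adjusted p of 0.0213). In IgG RIT, Rgs18, a regulator of G protein signalling, fell by 3.68 (SE of 1.03, adjusted p of 0.0309) and Rasgrp2, the exchange factor CalDAG-GEFI, by 2.67 (SE of 0.53, adjusted p of 0.0071). In CD45 RIT the myosin light chain gene Myl9 rose by 4.18 (SE of 0.73, adjusted p of 0.00119), and Bin2 fell by 4.23 (SE of 1.31, adjusted p of 0.0271).

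Among the genes named from these lists, Tal1 rose in TBI by 1.14 without TBI replicate 6, and the changes there were -3.17 for Clu, -2.90 for Serpine2 and -2.23 for Plek, each still called (adjusted p 0.00283 to 0.0358). In CD45 RIT, Runx1 lost its call without replicate 1 (0.29, adjusted p = 0.46), as did Fcer1g (-1.19, adjusted p = 0.11), and Thbs1 lost it without replicate 2 (3.10, adjusted p = 0.0883). Without replicate 2 the rise of Cd9 was 1.20, that of Itgb3 2.21 and that of Serpine2 3.32, and without replicate 1 they were 2.69, 3.43 and 4.39, each called. Fermt3 and Bin2 were also called without either library. Their changes were -2.96 and -3.27 in replicate 1 alone, while in replicate 2 Fermt3 had 29 counts and Bin2 had 0. Clu, Myl9 and Nbeal2 kept their calls in CD45 RIT without either library, as did the 3 agonist receptor genes named there.

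Other libraries ended further calls of these genes. In TBI, Tal1 was not called without untreated replicate 1 (adjusted p = 0.0509). Clu was not called without untreated replicates 1, 2 or 4 or TBI replicates 1, 4 or 5 (adjusted p 0.0774 to 0.109), and Serpine2 without the same libraries or TBI replicate 3 (adjusted p 0.0627 to 0.113). Plek was not called without untreated replicates 3 or 4 or TBI replicates 1, 3 or 5 (adjusted p 0.0521 to 0.0643). In IgG RIT, Etv6 was not called without IgG RIT replicate 1 (adjusted p = 0.0516), F2rl2 without any library other than untreated replicate 3 (adjusted p 0.05 to 0.0848), and Rgs18 without any single library of the comparison (adjusted p 0.0503 to 0.109). In CD45 RIT, Fcer1g and Thbs1 were not called without any of the 4 untreated libraries (adjusted p 0.0536 to 0.0977). With RLE factors the calls of Clu and Serpine2 in TBI and of Fcer1g in CD45 RIT were lost (adjusted p 0.0596 to 0.0813), and with no scaling factors those of Runx1 (0.74, adjusted p = 0.182) and Thbs1 (2.89, adjusted p = 0.0809) in CD45 RIT. With no filter on low counts, Clu and Serpine2 in TBI, F2rl2 in IgG RIT, and Fcer1g and Thbs1 in CD45 RIT were not called (adjusted p 0.0502 to 0.0706). With only the CD45 RIT and untreated libraries in the fit, Runx1, Fermt3 and Bin2 were not called (adjusted p 0.0877 to 0.179).

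Markers of other cells moved with these groups. Summed over 5 basophil and mast cell markers, the level was 4720 to 7280 CPM in untreated libraries, 117 to 858 in TBI, 12.1 to 453 in IgG RIT, and 0.183 and 0.240 in CD45 RIT. Summed over 10 erythroid markers it was 6420 to 12000, 22900 to 205000, 154000 to 175000 and 61100 to 272000 CPM in the same order, and over 8 progenitor markers 686 to 1070, 47.4 to 289, 51.2 to 98.2 and 45.9 to 52.5 CPM. Macrophage markers (9 genes) were at 62.7 to 69.4 CPM in untreated, 12.3 to 16.2 in TBI, 8.41 to 21.7 in IgG RIT and 71.6 to 162 in CD45 RIT libraries. This list was split in CD45 RIT, with 4 of 9 genes called higher than untreated and 2 lower, where 33.1% of all tested genes were called. Csf1r was at 2.62 to 2.88 CPM there against 34.5 to 50.7 in untreated libraries, and Adgre1 and Spic had 0 counts. Stromal markers (9 genes) were at 2520 to 6330, up to 1810, 371 to 1370 and 49300 to 68400 CPM. Of 9 stromal markers, 9 were called higher in CD45 RIT than in untreated libraries, beside the rise there of Serpine2, Clu, Thbs1 and Myl9. Endothelial markers (15 genes) were at 109 to 137, 58.8 to 117, 43.1 to 56.4 and 103 to 406 CPM. Of these, Cdh5, Tek, Stab2 and Sox17 were at 0 in every library of both RIT groups. Their untreated libraries had 0 to 6, 0 to 155, 0 to 70 and 0 to 1 counts in the same order. Other genes of the list went the other way. Of the 12 tested, 3 were called higher and 2 lower in CD45 RIT than in untreated libraries, beside 33.1% of all tested genes called. The part of these cells in the results for the 10 genes was not tested.

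**Figure D4:**
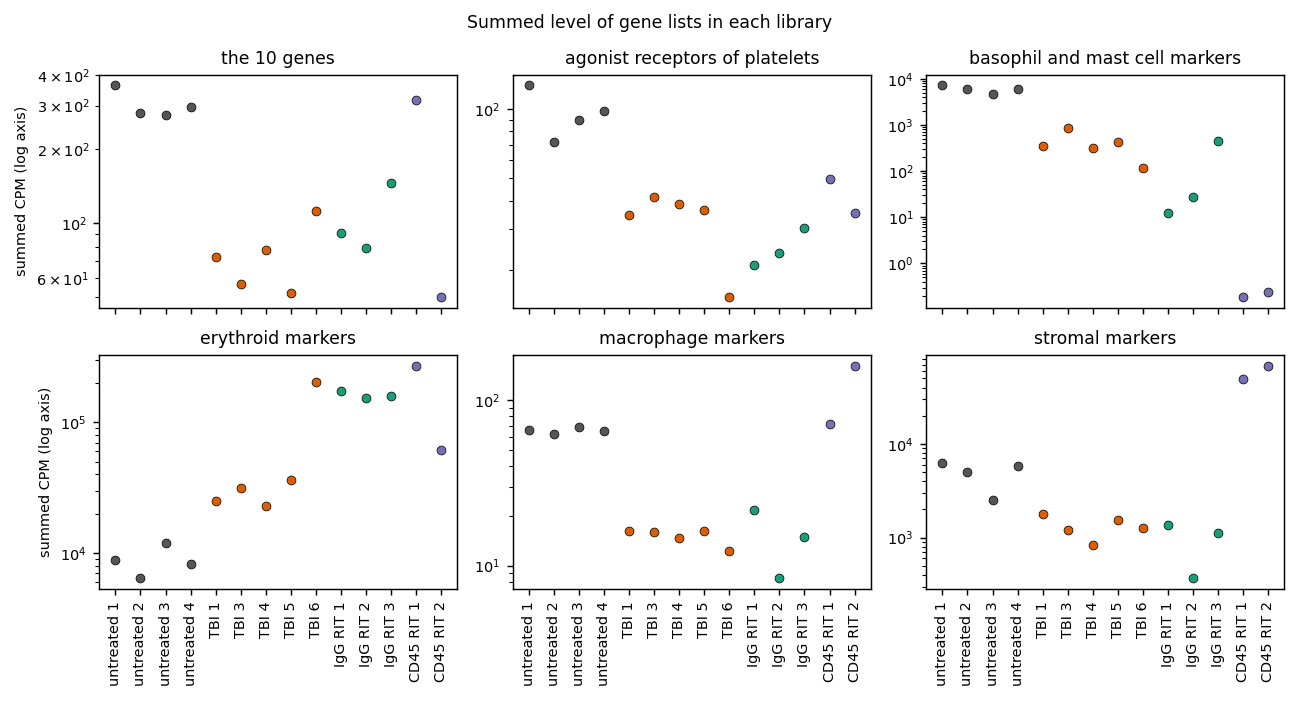
Summed CPM, on a logarithmic axis, of the 10 genes, of 9 agonist receptors of platelets and of 4 marker lists of other cells in each of the 14 libraries. The 10 genes, the agonist receptors and the basophil and mast cell markers were highest in untreated libraries apart from CD45 RIT replicate 1, at 317 CPM for the 10 genes, while erythroid markers were lowest in untreated libraries.

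Neutrophil markers (10 genes) were at 8460 to 9890 CPM in untreated libraries and 94.2 to 963 in TBI. They were at 696 to 891 CPM in IgG RIT and 7.43 to 18.9 in CD45 RIT. Mpo, at 7510 ± 573 CPM (SD, n = 4), made up most of the untreated sum. In IgG RIT 4 of the 10 were called lower than untreated and 0 higher, beside 16.4% of all tested genes called. The median log2 fold change of the list was 1.51 there, so the sum did not stand for the list. B cell markers (8 genes) were at 564 to 1900, 283 to 2560, 175 to 626 and 532 to 565 CPM in the same order. In the labels, TBI replicate 6 and the RIT samples have library numbers of 10 or more and all remaining samples have numbers up to 9, and nothing in the labels calls this a batch. The TBI comparison within the lower numbers is the one without TBI replicate 6, in which Pf4 and Ppbp were called. For RIT against untreated, the library number and the treatment cannot be told apart.

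For the 3 genes of highest mean CPM over the 14 libraries, the genes most alike in log2 CPM were taken from 8210 other protein-coding genes by Pearson's r, as a description. Itga2b was most alike to Sqor (r = 0.958), Pdlim7 (0.956) and Nck2 (0.954). Gp9 was most alike to Acot8 (0.991), Tmem60 (0.987) and Cyth2 (0.987). The 0 counts of Itga2b and Gp9 in CD45 RIT replicate 2 weigh on these values, and over the 12 libraries outside CD45 RIT the r of Sqor with Itga2b was 0.804 and that of Acot8 with Gp9 was 0.891. Pf4 was most alike to Ubald1 (0.872), Tent5a (0.857) and Plek (0.856), and over the 12 libraries outside CD45 RIT the r of Plek with Pf4 was 0.916. Plek was at 32.7 to 48.6 CPM in untreated libraries, 6.54 to 13.0 CPM in TBI, 1.74 to 12.2 CPM in IgG RIT and 41.9 to 84.4 CPM in CD45 RIT, so that it too was low in TBI and IgG RIT.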

How the data were processed

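RNA of 14 sorted samples was prepared with a Qiagen micro-scale kit, SMART-Seq v4 and Nextera XT, per the labels' protocols. A single table of counts, whole numbers for 55335 genes, was deposited, with no normalization as far as its values show. Per the submitters' processing notes, STAR 2.7.7a, FastQC 0.11.9 and edgeR 3.36.0 were used, and the notes name the build hg38. The table's coordinates are those of mouse: 54587 identifiers matched GENCODE M21 (GRCm38) and 54587 of these had the same coordinates. Counter, strand setting and treatment of shared reads are not given in the sources used here. No TBI replicate 2 is among the 14 samples. These libraries carry no molecular identifiers, so floors and intervals cover counting error only.

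The analysis used edgeR 4.0.16 (R 4.3.3): filterByExpr (minimum count 10, minimum total 15; 21509 genes), TMM factors, robust glmQLFit with 1 coefficient per group over 14 libraries, 6 contrasts, and Benjamini-Hochberg adjustment within each contrast. CPM used TMM-scaled library sizes, and CPM per kilobase the gene length given in the deposited table of counts. The SE is the log2 fold change over the square root of F. The fitting steps were tested on simulated data. Alternatives were RLE factors, no scaling, no filter, DESeq2 1.42.0, a replicate block, only the 2 groups compared, and leaving out each library.

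The 10 genes, the lists and the tests were chosen with earlier results of these data known. Beside the 10 genes, the text names from each of the 5 lists, in each comparison against untreated, up to 2 called genes with the largest rise and up to 2 with the largest fall and a mean of at least 1 CPM, and the 3 most alike genes (mean log2 CPM of at least 3). A gene that this rule names is not reported here.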

Additional observations from a re-analysis of the deposited data

Results flagged for a closer look

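Of 19 groups of 4 or 5 libraries examined for the 10 genes, 4 held a library far from the others by Dixon's criterion. Chance gives about 1 in 20 only for values with a normal distribution. The criterion was applied to CPM without a log scale, and each flagged library was the highest of its group. The number of flags can therefore not be set against that rate. Ppbp was at 14 CPM in TBI replicate 6 and at 0.915 to 2.81 CPM in the other 4 TBI libraries. Untreated replicate 1 stood out in 2 genes of the von Willebrand factor receptor: Gp1ba was at 14.5 CPM there and at 2.32 to 4.24 CPM in the other 3 untreated libraries, and Gp5 was at 55.7 CPM there and at 21.5 to 25 CPM in the others. Treml1 was at 1.62 CPM in TBI replicate 3 and at 0.286 to 0.646 CPM in the other 4 TBI libraries.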

How the results depend on the processing

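The number of the 10 genes called moved with several settings. In TBI against untreated it was 2, and 1 with RLE factors, 1 without a filter, 4 with DESeq2 (Itga2b and Treml1 added), 0 with a replicate block and 0 to 2 with 1 library left out. In IgG RIT against untreated it was 1, and 0 with RLE factors, 0 without a filter, 0 with the replicate block, 4 with only the 2 groups compared and 0 to 1 with 1 library left out. In CD45 RIT it was 2 against untreated (0 with the block, 2 to 5 with 1 library left out), 2 against IgG RIT (0 with the block, 0 with only the 2 groups, 1 to 4 with 1 library left out) and 4 against TBI (1 with the block, 1 to 5 with 1 library left out). Between IgG RIT and TBI it was 0, and 0 to 1 with 1 library left out. Same-numbered libraries were not paired: over 13 pairs their deviations correlated at -0.09 to 0.14. The cause of these moves was not tested.

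Directions reversed in genes that were not called. Gp9 in TBI (-0.10) was 0.05 with RLE factors, 0.04 without a filter, 0.06 with DESeq2, 0.05 with only the 2 groups and -0.40 to 0.07 with 1 library left out. Ppbp in IgG RIT (-0.03) was 0.17, 0.10, 0.17 and 0.24 in the same order and -1.09 to 0.40 with 1 library left out. In CD45 RIT against TBI, Gp5 (-0.04) was 0.02 with RLE factors and 0.02 with DESeq2, and Pf4 in IgG RIT against TBI (0.09) was -0.23 without scaling. With 1 library left out, Pf4 against TBI ranged from -0.50 to 0.61 and Treml1 from -1.39 to 1.63 in IgG RIT. Leaving out 1 library in CD45 RIT against TBI, the range was -0.82 to 0.09 for Gp6, -11.74 to 0.84 for Gp5, -11.81 to 2.57 for Itga2b and -6.66 to 5.67 for Clec1b. Against IgG RIT it was -12.23 to 2.08 for Itga2b, -10.10 to 2.37 for Gp5 and -8.07 to 4.10 for Clec1b, and against untreated -1.50 to 0.01 for Pf4, -12.62 to 0.02 for Gp5 and -9.07 to 3.24 for Clec1b. The lowest of these values, below -6, are fits to CD45 RIT replicate 2 alone, at 0 counts, and are no bounds.

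Over all genes, 926 called in TBI became 2485 with DESeq2, 38 with the block and 3251 with only the 2 groups. In IgG RIT 3536 became 5942, 2063 and 6662. In CD45 RIT 7116 became 4062 with the block and 3995 with only the 2 groups, against IgG RIT 8108 became 5098 and 2217, and against TBI 8308 became 3756 with the block. IgG RIT against TBI went from 52 to 203 without scaling, 2097 with DESeq2 and 850 with only the 2 groups. With 1 library left out, the count in TBI was 422 to 602 without any untreated library or TBI replicates 1, 3, 4 or 5, and 826 without TBI replicate 6. In IgG RIT it was 2310 without untreated replicate 4, and 1775 and 1903 without IgG RIT replicates 1 and 2. In CD45 RIT it was 11346 without CD45 RIT replicate 1. IgG RIT against TBI gave 2025 without TBI replicate 6 and 2 to 17 without TBI replicates 1, 3, 4 or 5 or IgG RIT replicates 1 or 2. Of the 52 other lineage genes, 7 called in TBI became 12 with DESeq2, 1 with the block and 22 with only the 2 groups. In IgG RIT 10 became 18 without scaling, 18 with DESeq2, 6 with the block and 27 with only the 2 groups. In CD45 RIT 15 became 9 with the block, against IgG RIT 26 became 16 and 7 with only the 2 groups, and against TBI 23 became 10 with the block. IgG RIT against TBI went from 1 to 2 with DESeq2 and to 2 with only the 2 groups. With 1 library left out, the count in TBI was 4 without untreated replicates 1 or 4 or TBI replicates 1 or 5, and in CD45 RIT it was 30 without CD45 RIT replicate 1 (39 against TBI). IgG RIT against TBI gave 6 without TBI replicate 6, 2 without IgG RIT replicate 3 and 0 without IgG RIT replicates 1 or 2. Without scaling, the median log2 fold change of all tested genes moved from -0.42 to -0.94 in IgG RIT and from -0.37 to -1.08 in CD45 RIT against untreated. The share of calls that were higher went from 35.0% to 14.5% in IgG RIT (46.7% with RLE factors), from 43.8% to 22.7% in CD45 RIT against untreated, from 50.9% to 33.6% in CD45 RIT against TBI, and from 28.8% to 11.3% in IgG RIT against TBI. For Gp1bb, with at most 5 counts in a library, no difference was detectable at this depth.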
